A study of Homo sapiens with 12 samples.

Results

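The late fall of RNA in ALKBH5 knockdown cells was taken as the change between 8 and 12 h in actinomycin D, within each of the 2 hairpin lines. It rests on 4 of the 12 libraries and covers all 9529 gene rows of the deposited table, the ERCC spike-in rows left out. The cells were NOMO-1, a human line grown out of a monocytic acute myeloid leukaemia. They were transduced with lentivirus carrying a hairpin and selected with puromycin. The groups used here were shALKBH5 after 12 h, shALKBH5 after 8 h and, for the earlier course, shALKBH5 after 0 h. The controls were shNS cells, which carry another hairpin, at the same 3 times. All 6 groups belong to the actinomycin D course, and each held 2 libraries. In a knockdown group the 2 libraries come from 2 different hairpins against ALKBH5. Column headers call these lines D and E at every time, without saying which letter is which hairpin. The titles name ALKBH5 hairpins, while the treatment protocol in the labels names virus against FTO and also a treatment with the drugs CS1, CS2 or DMSO. The titles, which name neither FTO nor a drug other than actinomycin D, were followed, and whether that protocol applies to these libraries is not known. No label says that the libraries of a group came from separate cultures. The p-values therefore measure the spread among these libraries alone, and that spread may be technical.

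Actinomycin D binds DNA and stops RNA polymerases, so after it is added the amount of an RNA falls at the pace at which that RNA is degraded. Short-lived mRNAs are lost first, and late in a course the RNA that is left is dominated by stable species. ALKBH5 removes the methyl group from N6-methyladenosine (m6A) in RNA, and reader proteins of the YTH family bind that mark, with YTHDF2 known for speeding decay. In acute myeloid leukaemia, ALKBH5 is known for supporting the growth of leukaemia cells.

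The deposited values are a signal per gene, apparently scaled to the spike-ins, and read depth is unknown. The gene total at 12 h was 186750 (line D) and 143765 (line E), against 390103 (line D) and 436116 (line E) at 8 h, while the ERCC median lay between 29.9 and 33.1 in all 12 libraries. Of 30 myeloid granule and surface genes looked for, 25 were measured. CTSG, a neutrophil protease, had 461 in D and 798 in E at 12 h, and SPI1, a transcription factor of the myeloid lineage, had 18.7 in D and 18.5 in E. The monocyte markers CD14 and CSF1R and the granule gene MPO were not analysed here. Of 6 erythroid, 4 megakaryocyte and 5 epithelial markers looked for, 0 were among the gene rows. Of 6 lymphoid markers 1 was, at a mean signal of 0.944 over the 4 late knockdown libraries. The RNA came from whole cultures, so fewer living cells and less RNA per cell cannot be told apart.

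Nearly every transcript fell in the last 4 h. In line D the median gene kept 48.1% of its 8 h signal at 12 h, with quartiles of 40.7% and 56.9%. In line E the median gene kept 32.9%, with quartiles of 29.6% and 37.3%. The shNS replicates kept a median of 29.99% and 32.9%. Line D therefore stood above the other 3, and line E lay beside the controls. The spike-ins stayed level, with a median ERCC transcript at 100.5% in D and 101.1% in E. Since the values are apparently scaled to the spike-ins, this is no separate check of the fall. At 8 h line D was instead the lowest, its median gene being down to 23.9% of its 0 h signal, against 33.6% in line E, 42.2% in shNS replicate 1 and 41.1% in shNS replicate 2. Per hour, the median gene of line D lost 0.264 log2 units late and 0.258 early (values of -0.264 and -0.258). Line E went at -0.401 log2 units per hour late and -0.197 early.

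**Figure D1:**
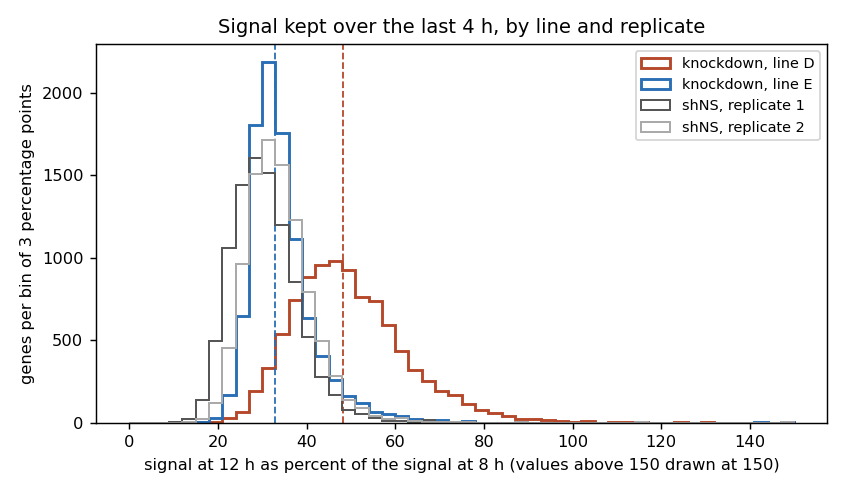
Histogram of the signal at 12 h as a percent of the signal at 8 h for 9529 genes, in bins of 3 percentage points, with the knockdown lines in colour and the shNS replicates in grey. Dashed lines mark the medians of line D (48.1%) and line E (32.9%), and values above 150% are drawn at 150%.

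Tested as deposited, on log2(signal + 0.1) with limma and with the line as a block, 9466 genes (99.3%) were lower at 12 h than at 8 h and 1 gene (0.0105%) was higher, at a Benjamini-Hochberg adjusted p under 0.05. The median change was -1.29 log2 units. The p-values of this comparison draw on a spread pooled over all genes, and the lines differ in their medians as given above. The gene that rose was RN7SK (chr6:52995621-52995948, plus strand, GRCh38), the 7SK small nuclear RNA that holds the elongation factor P-TEFb inactive. Its signal was 263 in D and 172 in E at 12 h, against 160.4 in D and 122 in E at 8 h. It was higher at 12 h in both lines. The change was 0.60 log2 units (SE 0.18, limma adjusted p = 7.01e-04), and without the line block limma gave an adjusted p of 0.0895. It also stood at 61.9 in D and 58.9 in E at 0 h, so its signal went up over the whole course in both knockdown lines. In shNS cells RN7SK had 93.2 and 72.4 at 0 h, 75.3 and 39.6 at 8 h, and 79.5 and 53.2 at 12 h. It thus ended below its 0 h signal in both shNS replicates, and the whole course was not compared by a test. Over the last 4 h it kept 106% and 134% in shNS cells. The test of its late difference from shNS did not pass (difference relative to the median gene -0.03, SE 0.35, limma adjusted p = 0.983). Counted by value alone, 32 genes were higher at 12 h in line D, 8 in line E and 2 in both. The second of those was RMRP, the RNA of the RNase MRP complex, chosen for mention after its values were seen. RMRP had 6.09 in D and 5.41 in E at 12 h, against 4.71 in D and 4.17 in E at 8 h.

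ALKBH5 itself (chr17:18183078-18209954, plus strand) was at 0.636 in D and 0.973 in E at 12 h, against 1.52 in D and 4.29 in E at 8 h. The shNS replicates had 8.22 and 8.30 at 12 h and 35.9 and 32.1 at 8 h, so each knockdown library lay below both controls of its time. ALKBH5 fell further in the last 4 h, by 1.58 log2 units as deposited (SE 0.21, limma adjusted p = 1.81e-13). Relative to the median gene its late change of -0.29 did not pass (SE 0.20, limma adjusted p = 0.329). In line D the lowest gene value was 0.753 at 8 h and 0.433 at 12 h, so ALKBH5 lay near the lower limit there. How far that limit held up its signal was not tested.

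Since almost everything fell, each gene was next set against the median gene of its own library. By this measure 1636 genes (17.2%) were called. Of these 720 (7.56%) were higher at 12 h and 916 (9.61%) were lower, and "higher" means kept better than the median transcript. The calls depend on the pairing within lines and on which libraries enter the fit. Without the line as a replicate block, limma called 0 genes, with 1134 at an unadjusted p under 0.05. With the block but from the knockdown libraries only, limma called 27, of which 19 were higher and 8 lower. With the block in both arms 1027 were called. Leaving out the 8 h library of line D gave 183 calls, leaving out its 12 h library 214, and leaving out the 8 h library of line E 574. It gave 3499 when the 0 h library of line D was missing, 3488 when that of line E was, and between 974 and 1047 without any 1 shNS library. The lines moved together: 7316 of 9529 genes lay on the same side of the median in both, and the late changes had r = 0.673 over genes, which share libraries and are not replicates. The spread over genes was wider in line D (SD 0.366 log2 units) than in line E (SD 0.293).

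**Figure D2:**
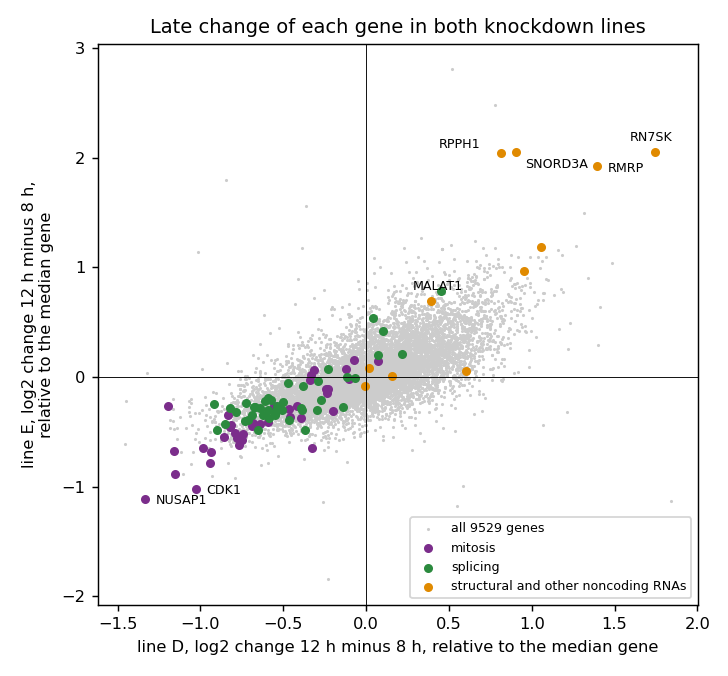
Late change of each of 9529 genes relative to the median gene, in log2 units, with line D across and line E up. Mitosis genes (purple) and splicing genes (green) lie mostly to the lower left, and RN7SK, RMRP, SNORD3A and RPPH1 in the upper right.

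The best-kept transcripts were short structural RNAs. After RN7SK, a product of RNA polymerase III, came SNORD3A (chr17:19188016-19188714, plus strand), the U3 small nucleolar RNA used in ribosomal RNA processing. SNORD3A had 63.1 in D and 54.9 in E at 12 h, against 68.9 in D and 38.8 in E at 8 h. It was lower at 12 h in D and higher in E. Relative to the median gene it was 1.48 log2 units higher (SE 0.21, limma adjusted p = 0.00462). RPPH1 (chr14:20343075-20343407, minus strand), the RNA of RNase P, which trims transfer RNA precursors, had 9.04 in D and 14.9 in E at 12 h, against 10.5 in D and 10.6 in E at 8 h. It too moved in opposite directions as deposited, and its relative change was 1.43 (SE 0.26, limma adjusted p = 0.00896). The RPPH1 call was lost without line E at 8 h (1.07, limma adjusted p = 0.0840). RN7SK had the largest relative change among the genes named, 1.90 (SE 0.25, limma adjusted p = 0.00428). These libraries were made from poly(A)-selected RNA, and such RNAs are not known for long A tails. The ends of RN7SK and RPPH1 are shown for that reason, as the last 60 bases of the GENCODE release 29 transcript on GRCh38 (chr6:52995889-52995948, plus strand, and chr14:20343075-20343134, minus strand). Capitals mark the longest runs of A, which are 3 bases in RN7SK and 2 in RPPH1, both in the printed stretch and in the whole transcript.
RN7SK: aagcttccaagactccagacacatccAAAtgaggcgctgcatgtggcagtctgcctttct
RPPH1: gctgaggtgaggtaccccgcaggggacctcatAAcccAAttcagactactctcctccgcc
How such RNAs entered the libraries was not tested.

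Of 22 structural and other noncoding RNAs looked for, 11 were measured, and 5 of them (45.5%) were called higher and 0 lower relative to the median gene, against 7.56% higher among all genes. Leaving out line E at 8 h gave 3 calls and any other late knockdown library 4. Besides those above, MALAT1, a long nuclear RNA, kept 64.3% in D and 55.2% in E, against 36.8% and 40.3% in the shNS replicates. MALAT1 was 0.54 higher than the median gene (SE 0.15, limma adjusted p = 0.0353), and its difference from shNS did not pass (limma adjusted p = 0.684). NEAT1, the RNA scaffold of paraspeckles, kept 48.5% in D and 32.0% in E and lay at the median. The signal recognition particle RNAs RN7SL1 and RN7SL2 are near-identical copies and their rows are uncertain. RN7SL1 kept 102% in D and 77.3% in E and was not called (limma adjusted p = 0.500). The ribosomal RNA row RNA18S5 kept 49.6% in D and 36.0% in E, close to the median gene. The median of the 11 was 0.81 in D and 0.97 in E, and 0.88 and 0.82 in the shNS replicates.

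Among messenger RNAs with a mean signal of at least 10 over the 4 libraries, the best kept was MMP1 (chr11:102789920-102798160, minus strand), which encodes interstitial collagenase. MMP1 had 119.8 in D and 6.35 in E at 12 h, against 119 in D and 8.77 in E at 8 h. The lines differed far more in its level than in its late change, which was 1.04 in D and 1.09 in E relative to the median gene (SE 0.16 of the fit, limma adjusted p = 0.00493). CD52, a small surface glycoprotein of leukocytes, had 19.2 in D and 5.64 in E at 12 h, against 22.6 in D and 7.87 in E at 8 h (relative change 0.94, SE 0.19, limma adjusted p = 0.0125). PRAM1, an adaptor protein of myeloid cells, had 38.9 in D and 41.1 in E at 12 h, against 40.5 in D and 64.6 in E at 8 h (relative change 0.94, SE 0.11, limma adjusted p = 0.00423). Both genes were lower at 12 h than at 8 h in both lines, PRAM1 by little in line D. The others were HDAC10 (a deacetylase), TCIRG1 (a subunit of the proton pump of lysosomes), TPM2 (a tropomyosin), NUPR1 (a stress-response chromatin protein), CDK11A (a kinase linked to transcription and splicing) and NPIPB15. They kept between 83.2% (TPM2) and 98.7% (TCIRG1) in D and between 58.3% (TCIRG1) and 69.5% (CDK11A) in E. Their relative changes ran between 0.88 for NPIPB15 and 0.92 for CDK11A, each with a limma adjusted p under 0.05. CDK11A has a near-identical neighbour, CDK11B, which was also called higher (0.72), and NPIPB15 belongs to a family of near-identical genes, so both rows are uncertain. Left-out libraries mattered for most of these. Without line D at 12 h the calls of CD52 (0.83), HDAC10 (0.69), TCIRG1 (0.64), TPM2 (0.79), NUPR1 (0.76), CDK11A (0.84) and NPIPB15 (0.69) were lost, with limma adjusted p between 0.0541 for CDK11A and 0.105 for CD52. Without line E at 8 h those of CD52 (0.62), HDAC10 (0.78), TPM2 (0.60), NUPR1 (0.73) and NPIPB15 (0.68) were lost, and without line D at 8 h that of TCIRG1 (0.97, limma adjusted p = 0.0509). In shNS cells the 9 messenger RNAs named here were kept at 46.1% to 68.4%, also above the shNS medians.

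**Figure D3:**
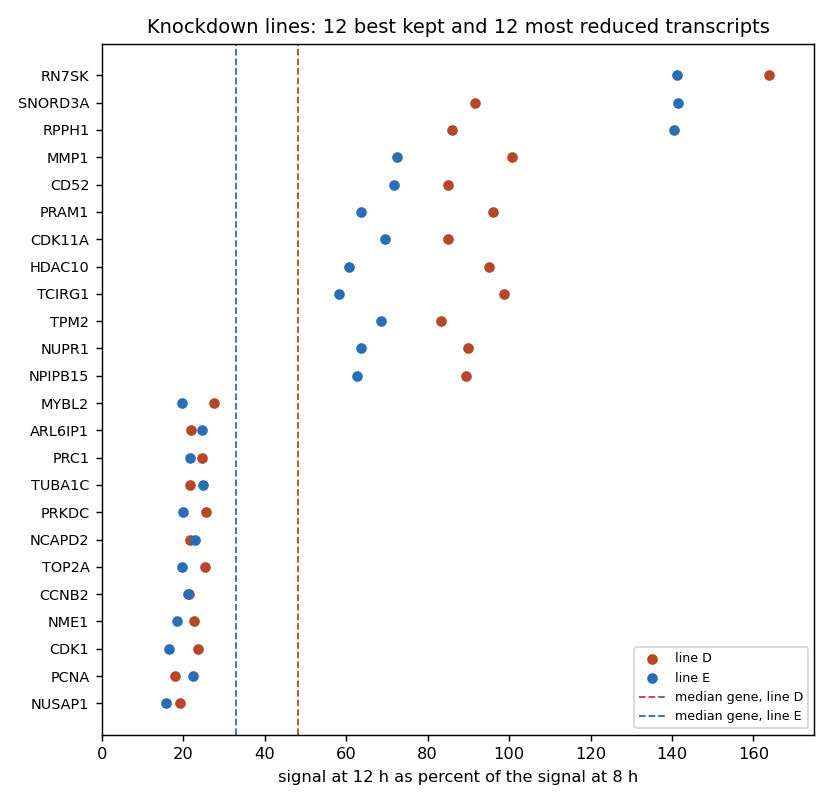
Signal at 12 h as a percent of the signal at 8 h in line D and line E for the 12 genes with the largest relative rise (above) and the 12 with the largest relative fall (below), among genes with a mean of at least 10. Dashed lines mark the median gene of each line. The 12 below lie between 15.6% and 27.4%, left of both medians, and the 12 above lie between 58.3% and 164%.

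At the other end, 5 of the 12 largest falls were of genes on the mitosis list. NUSAP1 (chr15:41332694-41381050, plus strand), a protein that bundles spindle microtubules, had 10.3 in D and 8.51 in E at 12 h, against 53.2 in D and 54.4 in E at 8 h. The 12 h values lay far below those at 8 h and the lines were alike. NUSAP1 fell by 1.22 log2 units more than the median gene (SE 0.09, limma adjusted p = 4.49e-04). PCNA (chr20:5114953-5126626, minus strand), the sliding clamp of DNA polymerases, had 22.6 in D and 28.4 in E at 12 h, against 127 in D and 127 in E at 8 h. It fell by 1.03 relative to the median gene (SE 0.17, limma adjusted p = 0.00692), more in line D (-1.45) than in line E (-0.61). Its call was lost without line D at 8 h (-0.78, adjusted p of 0.08843). CDK1 (chr10:60778331-60794852, plus strand), the kinase that starts mitosis, had 4.12 in D and 3.36 in E at 12 h, against 17.5 in D and 20.4 in E at 8 h. It fell by 1.02 (SE 0.09, limma adjusted p = 0.00202) and by nearly the same in each line (-1.03 in D and -1.02 in E).

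NME1 (chr17:51153536-51162428, plus strand), a nucleoside diphosphate kinase, had 13.3 in D and 16.5 in E at 12 h, against 58.8 in D and 89.8 in E at 8 h. It fell by 0.99 (SE 0.10, limma adjusted p = 0.00208), while its neighbour and close relative NME2 lay near the median gene (-0.12, limma adjusted p = 0.614), and reads shared between them could make both rows uncertain. CCNB2 (cyclin B2, a partner of CDK1) and NCAPD2 (a condensin subunit) differed between lines in level. CCNB2 had 2.43 in D and 8.37 in E at 12 h, against 11.4 in D and 39.6 in E at 8 h. NCAPD2 had 3.52 in D and 10.7 in E at 12 h, against 16.2 in D and 46.7 in E at 8 h. In both genes each line kept close to the same share, 21.3% and 21.1% for CCNB2 and 21.7% and 22.9% for NCAPD2. Relative to the median gene of its line, CCNB2 was at -1.16 in D and -0.67 in E, and NCAPD2 at -1.14 in D and -0.56 in E. TOP2A (topoisomerase II alpha, which untangles chromosomes) kept 25.2% in D and 19.6% in E, and PRC1 (an organiser of the central spindle) kept 24.6% and 21.6%. MYBL2 (a transcription factor of cell cycle genes) kept 27.4% in D and 19.6% in E, and PRKDC (the catalytic subunit of DNA-dependent protein kinase) kept 25.5% and 19.9%. TUBA1C (an alpha tubulin, with near-identical relatives such as TUBA1B, so uncertain) kept 21.6% and 24.7%, and ARL6IP1 (a membrane-shaping protein of the endoplasmic reticulum) kept 21.7% and 24.5%. Without line D at 8 h the calls of CCNB2 (-1.02), NCAPD2 (-0.76), TUBA1C (-0.57), PRKDC (-0.65), ARL6IP1 (-0.76) and MYBL2 (-0.70) were lost, with limma adjusted p between 0.0524 for MYBL2 and 0.172 for ARL6IP1. Without line D at 12 h those of CCNB2 (-0.45), NCAPD2 (-0.51), TUBA1C (-0.53) and ARL6IP1 (-0.35) were lost, and without line E at 8 h those of CCNB2 (-0.82) and ARL6IP1 (-0.86). Over the 12, the fall relative to the median gene lay between -1.22 for NUSAP1 and -0.81 for MYBL2, and the limma adjusted p between 4.49e-04 for NUSAP1 and 0.0251 for CCNB2.

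In shNS cells the 12 were kept unequally. PCNA was lowest, at 12.7% and 15.2%, followed by CDK1 at 15.2% and 19.9%, PRKDC at 15.7% and 17.2% and NUSAP1 at 15.8% and 19.3%. TUBA1C at 30.8% and 30.4%, NCAPD2 at 29.5% and 29.5%, PRC1 at 28.3% and 27.8% and MYBL2 at 27.4% and 28.0% lay near the shNS medians of 29.99% and 32.9%. The test of the difference between arms called 0 genes (0%), with 1158 of 9529 at an unadjusted p under 0.05, of which 344 were higher and 814 lower in the knockdown. The smallest p was that of TK1, thymidine kinase of the DNA salvage path. TK1 kept 28.4% in D and 21.6% in E, against 32.1% and 38.4% in the shNS replicates. Its difference was -0.87 log2 units (SE 0.12, limma adjusted p = 0.192), with both knockdown lines below both controls. NME1 had a difference of -0.72 (SE 0.14, limma adjusted p = 0.192), keeping 22.7% in D and 18.4% in E, against 24.8% and 26.9% in shNS. Neither passed. This difference had 187 calls when either 0 h knockdown library was left out, 24 without line E at 12 h, and 1 when shNS replicate 1 at 8 h or replicate 2 at 12 h was left out.

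The 3′ UTRs of the most reduced messenger RNAs were searched for TGTANATA, a short sequence element known from 3′ UTRs. The motif was chosen after the values were seen, and only the sense strand of the GENCODE 3′ UTR was read. It was found in 8 of the 12 largest falls, in 0 of the 8 coding genes with a 3′ UTR among the largest rises, and in 21 of 39 mitosis genes (53.8%). The share was 17.1% of the 2905 coding genes with a mean of at least 10 and 26.6% of all 8884. Taken over all genes with a mean of at least 10, it did little to separate the groups: 19.9% of the genes called lower held it, 17.0% of those called higher and 16.3% of the rest. The motif is mostly A and T, and the sets differ in their 3′ UTRs. Median 3′ UTR GC content was 38.3% in the 12 falls, 60.1% in the 8 rises, 35.8% in the mitosis genes and 45.2% in the 2905. In the same order the median 3′ UTR lengths were 710, 227, 620 and 676 bases. Whether composition or length accounts for the shares was not tested. The 8 sites are printed as 30 bases of the transcript strand on GRCh38, with the motif in capitals, at chr15:41380192-41380221 (NUSAP1, plus), chr20:5115154-5115183 (PCNA, minus, 1 of 2 sites), chr10:60794113-60794142 (CDK1, plus), chr17:51162115-51162144 (NME1, plus), chr15:59124936-59124965 (CCNB2, plus), chr17:40388584-40388613 (TOP2A, minus), chr12:49273788-49273817 (TUBA1C, plus) and chr16:18791793-18791822 (ARL6IP1, minus).
NUSAP1: ttttaacatctTGTAAATAttcctgtattc
PCNA: ctaagtacataTGTAGATAttgttttctgt
CDK1: taacttaaaaaTGTAAATAttctatatgaa
NME1: ctaatagagagTGTAAATActataaaaatg
CCNB2: actcttgatttTGTACATAgtcctctggtc
TOP2A: atcaacgttttTGTAAATAtttactatgtt
TUBA1C: tgtgaatcaccTGTAGATAttaaaatgcag
ARL6IP1: cttactttcatTGTAAATAagcctgtcttc
A match is a description of the sequence, and binding was not measured. A second motif, ATTTA, which can overlap the first, was found in 66.3% of the genes called lower, 35.8% of those called higher and 55.6% of the rest with a mean of at least 10. The longer TATTTAT, which contains ATTTA, was found in 20.4%, 17.0% and 18.9% of the same sets, so it did little to separate them. Among the 12 largest falls 8 held ATTTA and 1 held TATTTAT. Median 3′ UTR GC content was 40.1% in the genes called lower, 53.2% in those called higher and 46.8% in the rest. The median 3′ UTR was 838 bases in the first of those sets, 233 in the second and 632 in the third, and longer UTRs hold short motifs more often.

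Most of the 39 mitosis genes measured fell more than the median gene. Relative to the median gene 27 were lower and 0 higher, against 9.61% and 7.56% of all genes, and 34 were below the median in both lines. Their median was -0.64 in D and -0.41 in E, and -0.13 and -0.11 in the shNS replicates. Examples besides those above were UBE2C, the ubiquitin-conjugating enzyme of the anaphase-promoting complex (-1.02, SE 0.13, limma adjusted p = 0.00428), BUB1, a checkpoint kinase (-0.67, limma adjusted p = 0.00456), and CCNB1, cyclin B1 (-0.41, limma adjusted p = 0.0375). The kinases AURKA (0.04) and PLK1 (0.11) were not called. Nor was TACC3, a spindle protein, which kept 44.7% in D and 35.6% in E, against 41.2% and 44.9% in the shNS replicates (relative change -0.02, SE 0.09, limma adjusted p = 0.876). Its difference from shNS was -0.48 (SE 0.13, limma adjusted p = 0.233). Leaving out the 8 h library of line D left 7 of the 39 called lower, its 12 h library 10, and the 8 h library of line E 17. Without the block 0 were called and 20 had an unadjusted p under 0.05, all lower. The list shares PRC1, NUSAP1, CDK1, CCNB2 and TOP2A with the most reduced genes above.

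Of 39 DNA replication genes 19 were lower (48.7%) and 0 higher, against 9.61% and 7.56% of all genes. Their medians were -0.47 in D and -0.27 in E, and -0.26 and -0.21 in the shNS replicates. Beside PCNA they included MCM6, a subunit of the replicative helicase (-0.79, SE 0.17, limma adjusted p = 0.0141), and both large and small subunits of ribonucleotide reductase, RRM1 (-0.72) and RRM2 (-0.71). TYMS, thymidylate synthase, had 35.6 in D and 28.9 in E at 12 h, against 127 in D and 126 in E at 8 h (-0.69, SE 0.10, limma adjusted p = 0.00493). Of the 39, 3 were called when the 8 h library of line D was left out and 6 when its 12 h library was. Of 43 splicing genes 26 were lower (60.5%) and 1 higher (2.33%). Their medians were -0.54 in D and -0.28 in E, and -0.14 and -0.25 in the shNS replicates. SNRPG, a core protein of spliceosomal particles, was lowest (-0.69, SE 0.13, limma adjusted p = 0.00910). SRSF1 was at -0.55 (limma adjusted p = 0.0126), while its relative SRSF11 was kept at 67.0% in D and 58.6% in E (0.62, SE 0.11, limma adjusted p = 0.00800). With the 8 h library of line D left out 0 splicing genes were called lower by limma, with 17 at an unadjusted p under 0.05, and with its 12 h library left out 1. Line E alone gave 15 called lower, and line D alone 33. The SNRPG call was lost both times (-0.45 and -0.61), and that of SRSF11 without line E at 8 h (0.45). Mitosis, DNA replication and splicing had a negative median with median-of-ratios scaling, scaling to ribosomal protein genes and centring on genes with a mean of at least 10. Their calls did not hold as well: scaling to ribosomal protein genes left 3 mitosis, 0 DNA replication and 0 splicing genes lower by limma, with 25, 18 and 23 at an unadjusted p under 0.05, and the centring left 17, 11 and 9.

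**Figure D4:**
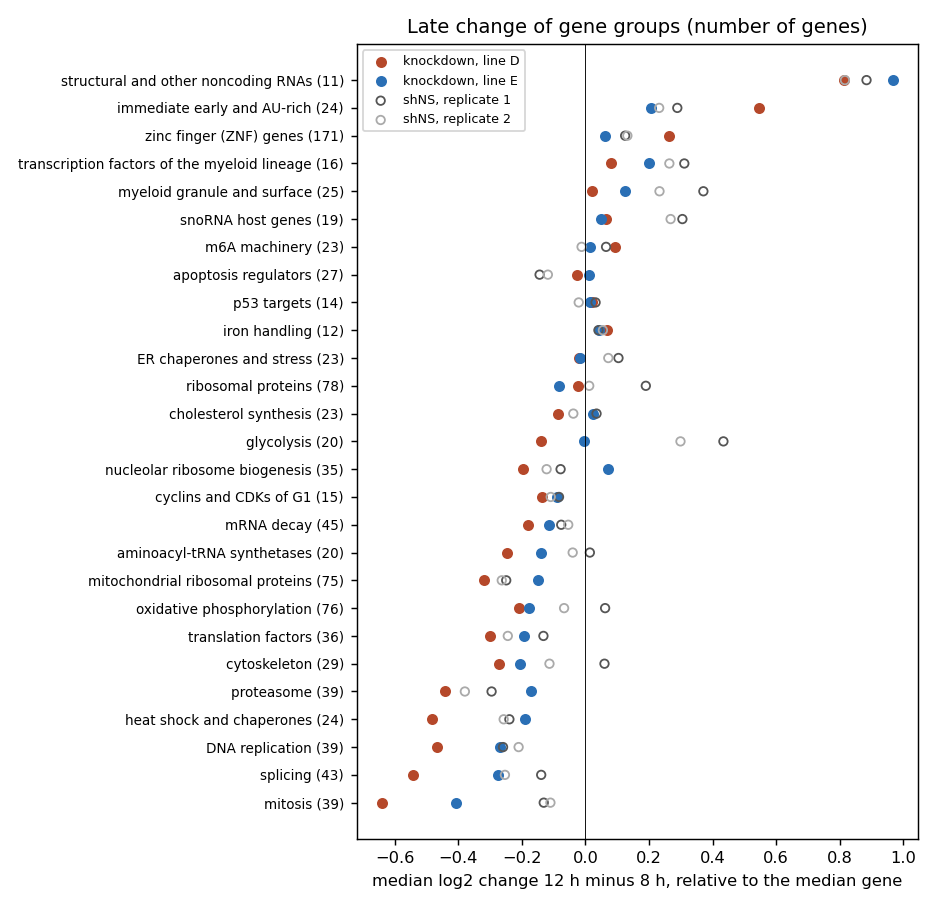
Median late change of 27 gene groups in log2 units relative to the median gene, with the number of measured genes in parentheses, for the knockdown lines (filled) and the shNS replicates (open). Mitosis lies lowest, at -0.64 in D and -0.41 in E, and structural noncoding RNAs highest, at 0.81 in D and 0.97 in E.

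Housekeeping machinery was divided. Of 39 proteasome genes 14 were lower (35.9%) and 0 higher, against 9.61% and 7.56% of all genes. Their median was -0.44 in D and -0.17 in E, and -0.30 and -0.38 in the shNS replicates. PSMB1, a core subunit, was at -0.74 (SE 0.13, limma adjusted p = 0.00702). Without line D at 8 h 0 proteasome genes were called, with 12 lower at an unadjusted p under 0.05, and without line D at 12 h 0 were called, with 18. Of 24 heat shock and chaperone genes 8 were lower (33.3%) and 2 higher (8.33%). Their median was -0.48 in D and -0.19 in E, and -0.24 and -0.26 in the shNS replicates. CCT6A, a subunit of the chaperonin that folds tubulin and actin, was lowest (-0.66, SE 0.17, limma adjusted p = 0.0263), and BAG3, a co-chaperone of HSP70, was kept at 77.7% in D and 50.2% in E (0.67, SE 0.13, limma adjusted p = 0.0101). Of 76 genes of oxidative phosphorylation 16 were lower (21.1%) and 0 higher, the same share as among all genes with a mean of at least 10 (21.1%), and the lowest was ATP5O, a subunit of ATP synthase (-0.68, SE 0.18, limma adjusted p = 0.0286). Of 36 translation factors 10 were lower (27.8%), not far above that share, the lowest being EIF3E (-0.61, limma adjusted p = 0.00711), while EEF1A1, the most abundant, was near the median (-0.08, limma adjusted p = 0.803). These counts moved with single libraries. Without line D at 8 h 0 heat shock, 0 oxidative phosphorylation and 0 translation factor genes were called lower by limma, with 5, 9 and 7 at an unadjusted p under 0.05, and without line D at 12 h again 0, with 6, 23 and 11. With line E at 8 h left out, 8 heat shock, 8 oxidative phosphorylation and 7 translation factor genes were lower. From line E alone, 14 proteasome, 1 heat shock, 13 oxidative phosphorylation and 4 translation factor genes were called lower, and from line D alone 27, 17, 30 and 19. Lost with the 8 h library of line D were the calls of PSMB1 (-0.53), CCT6A (-0.58), BAG3 (0.71), ATP5O (-0.52) and EIF3E (-0.50), and with the 12 h library those of PSMB1 (-0.55), CCT6A (-0.27), BAG3 (0.59), ATP5O (-0.31) and EIF3E (-0.52). The 8 h library of line E, when left out, took away those of ATP5O (-0.85, limma adjusted p = 0.0678), CCT6A (-0.74, limma adjusted p = 0.0933) and BAG3 (0.62, limma adjusted p = 0.0670), and ATP5O was not called without either shNS library at 8 h (limma adjusted p = 0.0504 each). Of 75 mitochondrial ribosomal protein genes 20 were lower (26.7%) and 3 higher (4%), against 9.61% and 7.56% of all genes. Their median was -0.32 in D and -0.15 in E, and -0.25 and -0.26 in the shNS replicates. Their joint median of -0.17 turned to 0.03 when libraries were centred on genes with a mean of at least 10. Of 20 aminoacyl-tRNA synthetase genes 5 were lower (25%), near the 21.1% of all genes with a mean of at least 10. The synthetase median of -0.16 turned to 0.04 under that centring. Without the 8 h library of line D 0 genes of these 2 lists were called.

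None of the 78 ribosomal protein genes was called in either direction, 1 having an unadjusted p under 0.05. Their median was -0.02 in D and -0.08 in E, and their joint value of -0.07 turned to 0.13 when libraries were centred on genes with a mean of at least 10. RPS27, the most abundant, had 2138 in D and 1525 in E at 12 h, against 3637 in D and 4029 in E at 8 h. None of the 25 myeloid granule and surface genes was called by limma either, with 5 higher at an unadjusted p under 0.05. CTSD, a lysosomal protease and the most abundant of these, kept 64.2% in D and 38.1% in E (0.28, SE 0.23, limma adjusted p = 0.410). Of 20 glycolysis genes 2 were lower (10%), near the 9.61% of all genes. Among them was LDHA, lactate dehydrogenase A (-0.65, SE 0.13, limma adjusted p = 0.0120, not called without line D at 8 h, -0.47, or at 12 h, -0.42). GAPDH kept 43.8% in D and 32.5% in E and was not called. The median of the 20 over both lines, -0.09, turned to 0.11 when centred on genes with a mean of at least 10. It was -0.14 in D and -0.01 in E, and 0.43 and 0.30 in the shNS replicates.

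A further set of well-kept transcripts were messenger RNAs already reduced by 8 h. Of 24 immediate early and AU-rich genes 7 were higher (29.2%) and 0 lower. The share higher was 7.56% among all genes and 10% among those with a mean under 10. Of the 8 members with a mean of at least 10, 1 was higher (12.5%), against 2.24% of all genes in that range. The medians of the 24 were 0.55 in D and 0.21 in E, and 0.29 and 0.23 in the shNS replicates. MYC, a transcription factor with a short-lived mRNA, had 275 in D and 209 in E at 0 h, 6.35 in D and 4.76 in E at 8 h, and 4.46 in D and 3.39 in E at 12 h. It lost nearly all of its signal early and kept 70.3% in D and 71.2% in E over the last 4 h (0.80, SE 0.13, limma adjusted p = 0.00625). ZFP36L1, which binds AU-rich mRNAs and speeds their decay, kept 93.3% in D and 54.6% in E (0.86, SE 0.21, limma adjusted p = 0.0245), at a signal of 1.07 in D and 0.515 in E at 12 h. The ZFP36L1 call was lost without line D at 8 h (1.07), line D at 12 h (0.55) or line E at 8 h (0.66). The other genes called were BTG1, KLF10, JUNB, BTG2 and SGK1. Without line D at 8 h or at 12 h 1 of the 24 was called, and without line E at 12 h 14 were. Of 171 zinc finger (ZNF) genes 20 were higher (11.7%) and 1 lower, with medians of 0.26 in D and 0.06 in E. That share is near the 10% of all genes with a mean under 10 that were higher. Of the ZNF genes 1 was called higher when line E at 8 h was left out and 31 when line E at 12 h was. There were 3 when line D at 8 h was left out and 0 when line D at 12 h was, the second with 16 at an unadjusted p under 0.05 by limma. Many of these genes are low, with a median level of 1.82 over the ZNF genes, against 5.29 over all genes. The lowest gene value of a library was 0.433 in D and 0.338 in E at 12 h, against 0.753 in D and 0.853 in E at 8 h. A gene that sits at this lower limit in both libraries would keep 57.6% in D and 39.7% in E, which is above the medians. How far that limit sets the higher calls of low genes was not tested.

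The late change varied with the level of the gene. With genes cut into 5 equal bins by mean signal, the lowest bin stood highest. In that bin the median was 0.25 in D and 0.21 in E, with 15.7% called higher and 0.577% lower. In the highest bin it was -0.22 in D and -0.15 in E, with 1.57% called higher and 22.4% lower. Among the 3036 genes with a mean of at least 10, 68 were higher (2.24%) and 640 lower (21.1%), and within that range 15 of 17 mitosis genes, 13 of 15 DNA replication genes, 25 of 39 splicing genes and 14 of 32 proteasome genes were lower. In the same range 16 of 72 oxidative phosphorylation genes (22.2%), 9 of 34 translation factors (26.5%), 5 of 18 synthetases (27.8%), 8 of 28 cytoskeleton genes (28.6%) and 0 of 78 ribosomal protein genes were lower. So were 17 of 38 mitochondrial ribosomal protein genes (44.7%), 8 of 18 heat shock genes (44.4%) and 7 of 20 mRNA decay genes (35%). The late change also varied with base composition. Among coding genes with a mean of at least 10, the bin with the lowest GC content (median 41.0%) had a median of -0.30 in D and -0.21 in E, and 34.7% were called lower. The bin with the highest GC content (median 62.3%) had a median of -0.07 in D and -0.06 in E, and 9.23% were called lower. Transcript length showed less, with medians of -0.18 in D and -0.12 in E in the bin of shortest transcripts and -0.23 in D and -0.17 in E in that of the longest. By gene type, the 84 antisense genes had medians of 0.25 in D and 0.10 in E, and the 62 lincRNAs 0.23 in D and 0.14 in E, at median levels of 2.18 and 3.03. No source read here says that counting used strand, so antisense genes cannot be separated from their partners with certainty. Whether level and base composition have a part in the group values was not tested.

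**Figure D5:**
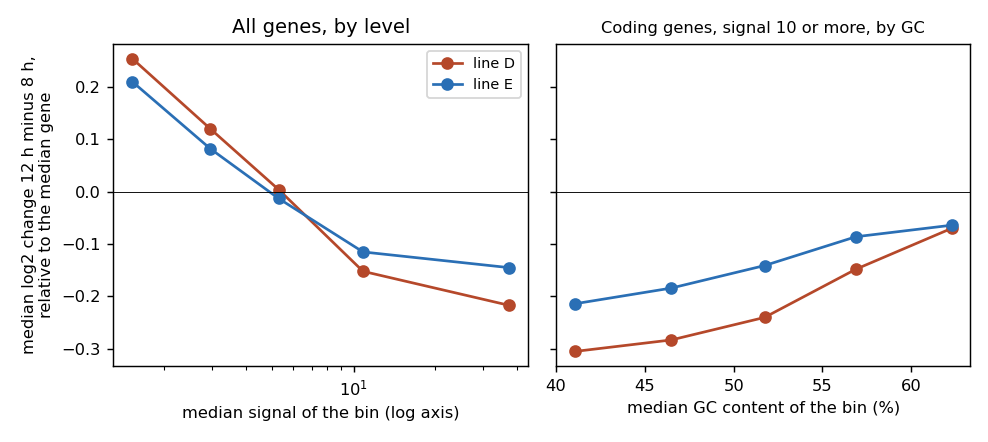
Median late change relative to the median gene in line D and line E, in log2 units, over 5 bins of all genes by mean signal (left, log axis) and over 5 bins of coding genes with a mean of at least 10 by GC content (right). It runs between 0.25 and -0.22 in line D across level, and between -0.30 and -0.07 across GC content.

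The m6A machinery held 23 measured genes, of which 2 were higher (8.70%) and 3 lower (13%) relative to the median gene. These shares are near the 7.56% and 9.61% of all genes. Of the 6 members with a mean of at least 10, 3 were lower (50%) and 0 higher. Among all genes in that range 21.1% were lower and 2.24% higher. YTHDF2, the reader known for speeding decay, had 2.63 in D and 2.16 in E at 12 h, against 4.20 in D and 4.35 in E at 8 h. It kept 62.5% in D and 49.5% in E, against 33.4% and 38.6% in the shNS replicates (0.47, SE 0.10, limma adjusted p = 0.0121). The call was lost without line D at 8 h (0.50, limma adjusted p = 0.0807) or line E at 8 h (0.45, limma adjusted p = 0.0718), and its difference from shNS did not pass (0.23, SE 0.13, limma adjusted p = 0.521). YTHDC1, a nuclear reader, was the other gene kept better than the median. METTL5, the methyltransferase of 18S ribosomal RNA, kept 28.6% in D and 22.01% in E (-0.68, SE 0.18, limma adjusted p = 0.0281), and the RNA-binding proteins ELAVL1 and HNRNPC were the other 2 called lower. METTL5 was not called without line D at 8 h (-0.85) or 12 h (-0.42) or line E at 8 h (-0.52). The m6A writers METTL3 (0.21, limma adjusted p = 0.379) and METTL14 (0.06, limma adjusted p = 0.674) and the other eraser, FTO (0.02, limma adjusted p = 0.896), were not called. Of 45 mRNA decay genes 12 were lower (26.7%) and 1 higher (2.22%), against 9.61% and 7.56% of all genes. The gene called higher was UPF2, a factor of nonsense-mediated decay. The median of the 45, -0.14, turned to 0.06 when centred on genes with a mean of at least 10. LSM6, a subunit of the ring that promotes decapping, was lowest (-0.67, SE 0.11, limma adjusted p = 0.00618). Its call was lost without line D at 8 h (-0.61), and UPF2 was not called without line D at 8 h (0.58) or 12 h (0.43) or line E at 8 h (0.35). Of the 45, 0 were lower when the 8 h library of line D was left out, with 9 at an unadjusted p under 0.05 by limma, 2 when its 12 h library was, and 4 when the 8 h library of line E was.

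Some genes changed pace between the early and the late interval. The late change per hour was set against that of the first 8 h, each relative to the median signal of its library. By this measure the early change over all genes had a median of 0.295 log2 units in D and 0.258 in E. The late minus early pace had a median of -0.043 per hour over all genes. In this test 4366 genes (45.8%) were called. Of these 2859 (30%) were faster late and 1507 (15.8%) slower. That split depends on the centring, being 3137 faster and 425 slower as deposited, 1725 faster and 1863 slower with median-of-ratios scaling, and 302 faster and 3723 slower when centred on genes with a mean of at least 10. In the main fit the split also went with level. Of the 3036 genes with a mean of at least 10, 2075 were faster late and 46 slower. Their early change relative to the library median had a median of 0.835 in D and 0.672 in E. Of the 6493 genes with a lower mean, 784 were faster and 1461 slower. The genes named for their pace were taken from the first range, where a faster call was common. Without the line block 447 genes were called in all. Both intervals share the 8 h libraries, and leaving out that of line D gave 1415 calls and leaving out that of line E 2561. NUSAP1 had 264 in D and 199 in E at 0 h, 53.2 in D and 54.4 in E at 8 h and 10.3 in D and 8.51 in E at 12 h. Against the median signal of its libraries NUSAP1 changed little early and fell late. Its late minus early pace was -0.30 log2 units per hour (SE 0.03, limma adjusted p = 3.10e-04). TK1 had 68.9 in D and 51.8 in E at 0 h, 29.6 in D and 30.8 in E at 8 h and 8.43 in D and 6.65 in E at 12 h, and its late minus early pace was -0.31 per hour (SE 0.03, limma adjusted p = 2.21e-04). NME1 (-0.34) and ATP5O (-0.30) also had a negative late minus early pace, which counts how well a gene was kept early as well as its late fall. ATP5O was not called without the block (limma adjusted p = 0.124) or without line D at 8 h (-0.24, limma adjusted p = 0.0761).

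The 5 genes named for a slower late pace had lost most of their signal by 8 h. CXCR4, a chemokine receptor, had 412 in D and 537 in E at 0 h, 19.8 in D and 22.8 in E at 8 h and 13.0 in D and 12.2 in E at 12 h. It kept 65.7% in D and 53.2% in E over the last 4 h, and its late pace was slower by 0.43 log2 units per hour relative to the median gene (SE 0.05, limma adjusted p = 4.68e-04). BYSL, a factor of small ribosomal subunit assembly, had 378 in D and 258 in E at 0 h, 22.5 in D and 15.99 in E at 8 h and 13.5 in D and 9.05 in E at 12 h (0.37, SE 0.04, limma adjusted p = 4.68e-04). ZFP36L2 (0.32), MID1IP1 (0.29) and GFI1 (0.27), a repressor of myeloid genes, were also slower late. The call of MID1IP1 was lost without line D at 8 h (0.28, limma adjusted p = 0.0555) and that of GFI1 without line E at 8 h (0.18, limma adjusted p = 0.0576). Without the line block BYSL (limma adjusted p = 0.0524), MID1IP1 (limma adjusted p = 0.228) and GFI1 (limma adjusted p = 0.0849) were not called, while CXCR4 and ZFP36L2 were. None of these 5 was at the lower limit of its libraries. In shNS cells CXCR4 kept 41.5% and 47.8% and BYSL 31.3% and 31.1% over the last 4 h, and neither difference from shNS passed (0.03 for CXCR4, limma adjusted p = 0.970, and 0.50 for BYSL, limma adjusted p = 0.313).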

How the data were processed

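Per the submitters' processing notes, reads were handled with STAR and RSEM on GRCh38. The deposited signal per gene symbol is apparently scaled to the ERCC spike-ins, a step no label states, and nothing read here gives its earlier unit. No counts are given, so no interval was computed. Values entered the fit after adding 0.1 and taking log2. The fit used limma 3.58.1 under R 4.3.3 (mean-variance trend, empirical Bayes, Benjamini-Hochberg adjustment over 9529 genes). The fit had means for 6 groups over 12 libraries, with line D or E as a block in the knockdown arm and 5 residual degrees of freedom. Letters recur at each time, and the D minus E deviations had r = 0.900 over genes between 8 and 12 h, against 0.092 for the shNS numbers. Relative values had the median log2 of their library subtracted. A mean of at least 1 was required, which every gene met. Genes were named by a rule: 7 genes of the m6A and ALKBH5 literature (ALKBH5, FTO, METTL3, METTL14, YTHDF2, TACC3, MYC), the 12 largest called changes each way with a mean of at least 10, the extreme and most abundant members of gene lists, and the largest changes of pace. Members, lists and tests were chosen with earlier results of these data known. Of 9529 symbols 9144 matched GENCODE release 29 directly, 222 through a RefSeq synonym and 163 not at all. The procedure was tested on simulated data. MIR5047, which the rule picks, is named only. Some results are not reported here.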

Additional observations from a re-analysis of the deposited data

How the results depend on the processing

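For the fall as deposited, all alternatives kept the count within 1.5 times of 9467 except scaling to ribosomal protein genes, which called 104 genes, 96 of them higher. By construction that scaling removes the fall these genes share (median change 0.013), so it does not test the fall as deposited. It is the same fit as the one listed for the relative change. Leaving out 1 library gave 8889 to 9485.

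Relative to the median gene, where 1636 genes were called, the count was 0 with no replicate block, 1027 with the replicate block in both arms, 27 from the knockdown libraries only, 4441 with a pseudocount of 1, 104 with scaling to ribosomal protein genes, 3211 from line D alone, and 9467 as deposited. A pair of settings was chosen after seeing the data: centring on genes with a mean of at least 10 called 2928 (2650 higher and 278 lower, moving the median gene by 0.20), and testing only those genes called 837 of 3036. Leaving out 1 library gave 183 to 3499. The cause was not tested. The 71 gene results counted at the end of this paragraph also cover the fall as deposited, the change of pace and genes not called in the main fit. As deposited, the median gene moves by -1.29, so by construction these genes, higher relative to the median or near it, turned negative: FTO -1.27, METTL3 -1.08, METTL14 -1.23, YTHDF2 -0.82, MYC -0.49, MMP1 -0.22, CD52 -0.35, PRAM1 -0.36, CDK11A -0.38, HDAC10 -0.39, TCIRG1 -0.40, TPM2 -0.40, NUPR1 -0.40, NPIPB15 -0.42, MRPL44 -0.74, SNHG12 -0.50, WDR74 -0.74, ZFP36L1 -0.43, SOX4 -0.55, TM7SF2 -0.23, BAG3 -0.63, DNAJB9 -0.45, UPF2 -0.83, SRSF11 -0.67, BBC3 -0.44, HLA-DMB -0.65 and ZNF579 -0.25. Of 71 gene results, 60 were no longer called with no replicate block, 46 from the knockdown libraries only, 35 without the 8 h library of line D and 33 without its 12 h library.

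The difference from shNS, with 0 calls, had 5 as deposited and 0 to 187 when 1 library was left out. The change of pace, with 4366 calls, had 447 with no replicate block, 1532 from the knockdown libraries only and 1415 to 5547 when 1 library was left out. Setting no filter removed no gene and is void. Where leaving out a library left 1 in a group, that one was taken to vary as much as the rest do. With no counts, what depth limits cannot be given, and low genes cannot show a deep fall.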
